A study of Mus musculus with 18 samples.

Results

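Interferon-stimulated genes are the genes that cells switch on after an interferon binds its receptor, and 43 of them, taken by name from a list of type I and type II interferon targets, were followed across 6 groups of mouse intestinal CD4 T cells. The deposited table held 38392 genes. A gene was tested if it reached a normalised count of at least 10 in 3 or more of the 18 libraries; 15472 genes did, and all 43 interferon-stimulated genes were among them. The cells descended from CD4+CD8α-Foxp3-GFP- cells of C57BL/6 TNa TNb RAG1-/- Foxp3GFP donors, whose T cells carry a single T-cell receptor that came from a peripherally induced regulatory T cell and cannot rearrange others because RAG1 is missing. They were transferred into C57BL/6 TCRa-/- TCRb-/- hosts, which have no αβ T cells of their own, and recovered from the small intestine 6 weeks later. CD4+CD8α+ cells (DP), Foxp3+ cells (TR) and CD4+CD8α-Foxp3-GFP- cells that had remained CD4-only (SP) were each sorted from the epithelium (IEL) and from the lamina propria (LP), the connective tissue under it. Each of the 6 groups had 3 libraries, which the labels call biological replicates without naming the animals. The p-values therefore measure the spread between libraries. Whether a replicate number marks the same animal in several groups could not be settled. The design compares populations within a site and sites within a population.

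The libraries held between 5093955 and 8851347 reads assigned to genes, recovered from the normalised counts. Defining T-cell genes were present in every group, with a summed normalised count of 16609.94 to 22664.99 over 7 genes. The sort genes followed the labels: Cd8a, a CD8 coreceptor chain, was between 3363.92 and 6443.51 in DP libraries and at most 113.16 elsewhere. Foxp3, the regulatory T-cell factor, was between 66.19 and 163.61 in TR libraries and at most 39.88 elsewhere. The 3 epithelial TR libraries stood apart. Their pairwise correlations were 0.8045 to 0.8727, against at least 0.9238 within every other group, and comparisons with them therefore rest on a wider spread. Contrasts that included them were fitted on the groups in the contrast alone, and the other contrasts on the 15 libraries of the remaining 5 groups, so counts of genes are not of equal power across contrasts.

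Type I interferons signal through a receptor made of IFNAR1 and IFNAR2 to a complex that contains STAT2 and IRF9 and binds the promoters of its target genes. Interferon-gamma, the type II interferon made by T cells and natural killer cells, signals through IFNGR1 and IFNGR2 and the kinases JAK1 and JAK2. The products of the target genes sense viral nucleic acid, block viral entry or replication, attack the membranes that enclose intracellular parasites, and feed back on the pathway itself.

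Of the 43 genes, 28 passed an adjusted p under 0.05 in at least 1 of 11 contrasts and 15 in none. The share of all tested genes that passed in at least 1 contrast was not counted. The map of all 43 genes by library shows 2 main patterns, one that separates Foxp3+ from the other cells and one that separates the sites.

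**Figure D1:**
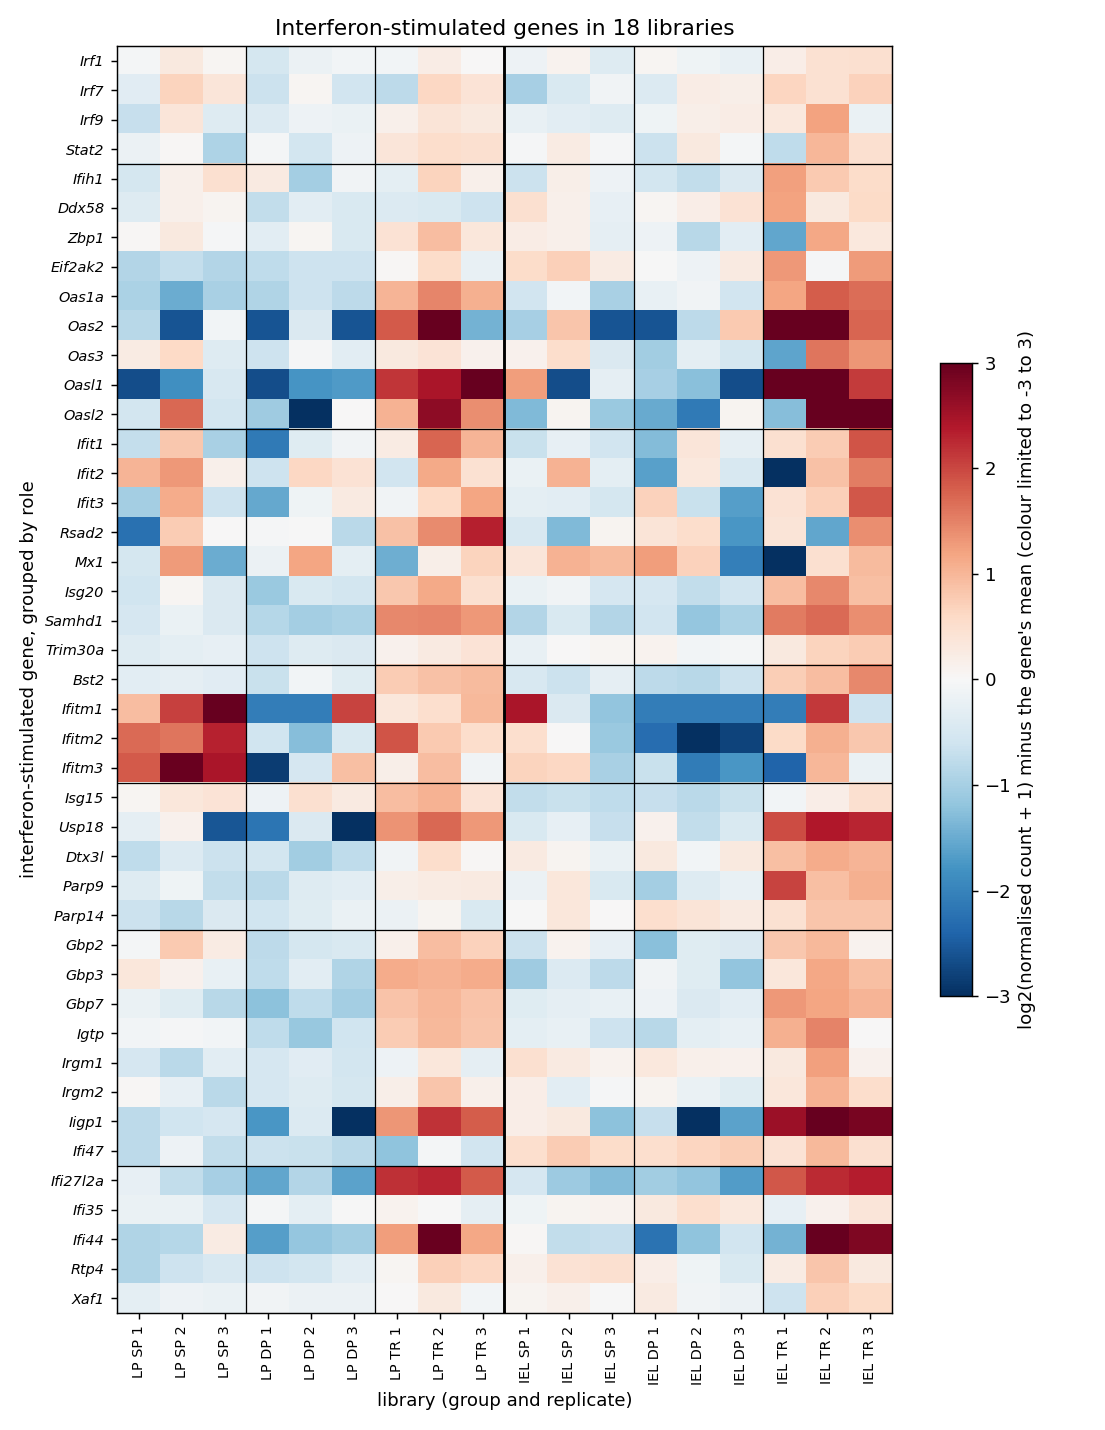
Each row is a gene and each column a library, with log2(normalised count + 1) minus the gene's mean over 18 libraries as colour, limited to -3 to 3; horizontal lines separate roles and vertical lines groups. Samhd1, Oas1a, Usp18, Bst2, Gbp7 and Ifi27l2a are red in all 6 TR libraries, and Ifi47 is blue or white in LP and red in IEL libraries of every population.

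In the lamina propria, Foxp3+ cells held more interferon-stimulated transcript than CD4-only cells. Of the 43 genes, 15 (34.9%) were higher and 0 lower in TR cells, where 9.50% of all tested genes passed, 5.03% higher and 4.47% lower. The median difference of the 43 was 0.72 on the log2 scale, against -0.01 for all genes. Rises came from every role except the transcription factors: 3 of 9 sensors and OAS genes, 3 of 8 IFIT and other antiviral effectors, 1 of 4 membrane restriction factors (Bst2), 2 of 5 ISG15 and ADP-ribosyl genes, 3 of 8 GTPases induced by interferon-gamma, and 3 of the 5 others. The other 3 membrane restriction factors, Ifitm1, Ifitm2 and Ifitm3, had differences below 0 that did not pass (-1.46 ± 1.12, -0.79 ± 0.46 and -2.09 ± 0.78, adjusted p = 0.501, 0.348 and 0.118). At 28 of the 43 genes the unadjusted p was under 0.05, as it was at 3484 of the 15472 tested genes.

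Oas1a makes 2′-5′ oligoadenylate when it meets double-stranded RNA, the signal that starts RNA decay by RNase L. Its normalised counts were 171, 117 and 167 in the LP SP libraries and 672, 918 and 695 in LP TR. All 3 TR libraries lay above all SP libraries, a difference of 2.33 ± 0.23 log2 (SE) with adjusted p = 2.45e-05. Eif2ak2, which encodes the RNA-activated kinase PKR that halts translation, went from 280.0, 313 and 279 to 531, 752 and 446 (log2 difference 0.95 ± 0.19, adjusted p = 0.00505), again without overlap. Oasl1, an OAS relative known to restrain IRF7 translation, was near the floor of 3 reads in SP cells at 0, 0.75 and 3.48. It reached 27, 33.6 and 51.1 in TR cells, and its fitted difference of 4.22 ± 0.91 (adjusted p = 0.00954) depends on the pseudocount. Oasl1 and Oas2 met the filter on low values only through TR libraries and Ifitm1 only through LP or SP libraries, so a call of Oasl1 against TR cells is no support for the list. With these 3 genes left out, the count of 15 was 14 of 40.

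Samhd1, a phosphohydrolase that drains the nucleotide pool used by reverse transcription, had the smallest p of the 43 genes. It stood at 845, 1045 and 879.7 in LP SP libraries and 3246, 3298 and 2965 in LP TR, groups that are separate by a wide margin. The difference was 1.78 ± 0.15, adjusted p = 6.15e-06. Isg20, an exonuclease that degrades viral RNA, rose by 1.13 ± 0.23 (adjusted p = 0.00596), with TR libraries at 656, 819 and 519.9 and SP libraries at 247, 389 and 278. Trim30a, a TRIM protein that limits NF-kB signalling, showed a small and even rise of 0.58 ± 0.12 (adjusted p = 0.00595). Its SP libraries held 685, 727 and 753 and its TR libraries 978, 1084 and 1194. Bst2, or tetherin, holds budding virus particles at the cell surface, and its TR libraries at 709, 768 and 809.6 were all above the SP libraries at 336, 349 and 329 (log2 difference 1.17 ± 0.16, adjusted p = 0.000301).

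Among the genes of the ISG15 system, Usp18 encodes the protease that removes ISG15 from proteins and also damps the type I receptor. Its LP SP libraries were uneven at 72.6, 96.3 and 13.9, and LP TR held 227, 295 and 219. All TR libraries were higher (log2 difference 2.37 ± 0.68, adjusted p = 0.0418). Dtx3l, a ubiquitin ligase that works with PARP9, rose by 0.76 ± 0.19 (adjusted p = 0.0198); its exons overlap those of Parp9 on the other strand and the library kit does not mark strand, so reads of the pair cannot be told apart there. ISG15 itself, the ubiquitin-like modifier, held 637, 778 and 821 in SP and 1162, 1276 and 818 in TR libraries, a difference of 0.52 ± 0.18 that missed the threshold (adjusted p = 0.0926).

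The guanylate-binding proteins and the immunity-related GTPases assemble on the membranes around intracellular pathogens. Gbp7 held 2039.8, 1842 and 1314 in LP SP and 4290.1, 4663 and 4231 in LP TR libraries. The TR libraries were close to each other and all above the SP libraries, with a difference of 1.37 ± 0.15 (adjusted p = 7.01e-05). Igtp, also called Irgm3, was even within both groups at 735, 766 and 738 and 1316, 1536 and 1388 (difference 0.92 ± 0.17, adjusted p = 0.00428). Its annotated exons overlap those of its neighbour Irgm2 on the same strand, so the split of reads between that pair is uncertain, as it is between near-identical Gbp and Ifitm family members. Gbp3 rose by 1.00 ± 0.26 (adjusted p = 0.0243).

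Ifi27l2a, a small hydrophobic protein of the ISG12 family, showed the widest gap between means among the 3 other genes. SP libraries held 1429, 1019 and 844 and TR libraries 7766, 8298 and 6109, a gap of 6.74 times between the means. The log2 difference was 2.77 ± 0.26, adjusted p = 1.5e-05. Rtp4, a chaperone of receptor transport with antiviral activity, rose by 1.14 ± 0.21 (adjusted p = 0.00298). Ifi44 rose from 9.37, 9.7 and 22 to 45.4, 150.5 and 42.6, where TR replicate 2 stood far above the other two (difference 2.30 ± 0.55, adjusted p = 0.0167). With 1 library left out the count of 15 became 11 to 14. The calls lost were of Gbp3 without any LP TR library or LP SP replicates 2 or 3 (largest adjusted p = 0.0998), Usp18 without any LP TR library or LP SP replicate 3 (0.155), Dtx3l without LP TR replicate 2 or LP SP replicates 1 or 3 (0.0874) and Ifi44 without LP TR replicate 2 or LP SP replicates 1 or 2 (0.0782).

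In the epithelium, 10 of the 43 genes (23.3%) were higher and 0 lower in Foxp3+ than in CD4-only cells, where 2.91% of all tested genes passed, 1.49% higher and 1.42% lower. The median difference was 0.93, against -0.05 for all genes. An unadjusted p under 0.05 was found at 24 of the 43 and at 2592 of the 15472 tested genes. Samhd1 held 651, 866 and 654 in SP and 3537, 3902 and 3140.4 in TR libraries, and the groups did not overlap (difference 2.29 ± 0.16, adjusted p = 0.00349). Gbp7 went from 1815, 1961 and 2016 to 5759, 5311 and 4795 (difference 1.45 ± 0.10, adjusted p = 0.00349). These 2 genes kept an adjusted p under 0.05 whichever library was left out. With a block for the replicate number in the fit, Samhd1 passed (adjusted p = 0.0319) and Gbp7 missed (adjusted p = 0.0513).

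Ifi27l2a held 1202, 799 and 689.8 in epithelial SP and 6115, 8052 and 8686 in TR libraries, 8.5 times as much on average. All TR libraries were above all SP libraries (difference 3.11 ± 0.24, adjusted p = 0.0051), and the call was lost without IEL SP replicate 2 (adjusted p = 0.0526). Usp18 was even at 64.1, 73.5 and 54.3 in SP and rose to 342, 471 and 430.5 in TR libraries (difference 2.68 ± 0.25, adjusted p = 0.0071). Its call was lost without IEL SP replicate 1 or 2 (largest adjusted p = 0.0601). Iigp1, the immunity-related GTPase that loads onto parasite vacuoles, held 226, 238 and 83.1 in SP and 1170.4, 1866 and 1412 in TR libraries. Its difference of 3.13 ± 0.45 (adjusted p = 0.027) did not pass without IEL TR replicates 2 or 3 or IEL SP replicates 1 or 2 (largest adjusted p = 0.0945).

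Oas1a rose from 221, 309.8 and 169 to 753, 1156 and 1055 (difference 2.10 ± 0.29, adjusted p = 0.0236). Bst2 rose from 300.4, 266 and 346 to 699.7, 796 and 1130.2 (2.88 times the SP mean, adjusted p = 0.0327). Smaller rises were those of Gbp3 (1.56 ± 0.27, adjusted p = 0.0458), Isg20 (1.36 ± 0.22, adjusted p = 0.0349) and Dtx3l (0.97 ± 0.15, adjusted p = 0.0342). In none of these 5 genes did a TR library fall to the level of an SP library. Each of these 5 calls was lost without IEL TR replicate 2 or any 1 IEL SP library, and those of Oas1a, Gbp3, Isg20 and Dtx3l also without IEL TR replicate 3 (largest adjusted p = 0.184, for Gbp3). The count of 10 was 3, 2 and 5 without IEL SP replicates 1, 2 and 3, and 13, 4 and 6 without IEL TR replicates 1, 2 and 3. With all libraries scaled to equal totals it was 5, and with the replicate block it was 1.

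**Figure D2:**
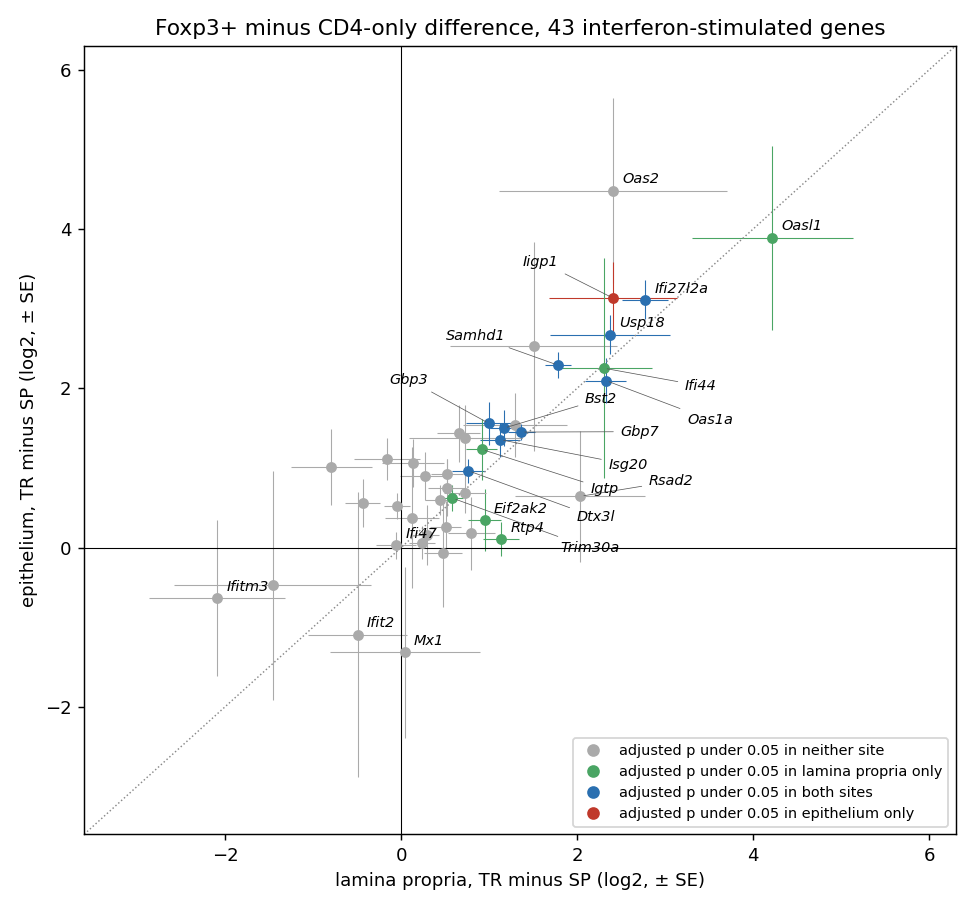
Each point is 1 of the 43 genes, with the TR minus SP difference on log2(normalised count + 1) in the lamina propria on the horizontal and in the epithelium on the vertical axis, bars showing SE and the dotted line equal differences. Samhd1, Oas1a, Usp18, Bst2, Gbp3, Gbp7, Isg20, Dtx3l and Ifi27l2a passed in both sites and lie in the upper right.

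The 2 sites share no library in these contrasts, but all 18 libraries correlated best with their own replicate number. Agreement between the sites, here and below, is therefore not shown to be independent. Of the genes higher in Foxp3+ cells, 9 passed in both sites: Bst2, Dtx3l, Gbp3, Gbp7, Ifi27l2a, Isg20, Oas1a, Samhd1 and Usp18. They are 9 of the 10 epithelial genes and 9 of the 15 in the lamina propria. The share of all tested genes that passed in both sites was not counted. The difference between the sites was itself tested as an interaction, and 0 of the 43 genes passed in limma, edgeR or DESeq2. At 6 of them the unadjusted p was under 0.05, as at 1325 of the 15472 tested genes. Of all tested genes 0.168% passed, 0.110% with a positive and 0.0582% with a negative interaction. Rtp4 had the smallest p of the 43, with a difference of -1.03 ± 0.32 between the epithelial and lamina propria effects (adjusted p = 0.383).

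Markers of other cells moved with the Foxp3+ gate. A list of 7 B-cell and plasma-cell genes summed to 98.44 to 570.79 normalised counts in LP TR libraries, against 1.17 to 22.02 in LP SP and 18.69 to 45.36 in LP DP. In LP TR libraries Sdc1 was at 0, and the joining chain gene Igj ranged from 2.43 to 471. In the epithelium the same list ranged from 4.2 to 262.27 in TR and from 1.0 to 26.3 in SP libraries, with Mzb1 and Igj at 0 in TR. A list of 7 innate lymphoid and natural killer genes summed to 991.94 to 1272.13 in LP TR and 293.33 to 686.58 in LP SP, and to 380.31 to 508.71 in IEL TR and 111.14 to 243.33 in IEL SP. Of that sum, Il1rl1, the ST2 receptor chain that Foxp3+ cells of the gut also express, made 956 to 1262 in LP TR, while Ncr1 was at 0 in all TR libraries. A list of 10 myeloid and dendritic genes was lower in TR libraries, at 341.98 to 393.75 in LP TR against 542.43 to 807.58 in LP SP, and at 311.94 to 377.16 in IEL TR against 437.59 to 481.9 in IEL SP. A list of 3 gamma-delta T-cell genes also had a lower sum, at 241.22 to 333.59 in LP TR against 351.49 to 408.26 in LP SP. In the epithelium the sums were 250.96 to 422.77 in TR against 873.86 to 1059.39 in SP, with Tcrg-C1 at 0 in IEL TR. The 3 genes did not move together. Tcrg-C4 was 1.08 to 8.7 in LP TR against 159.34 to 207.49 in LP SP, and 1.05 to 3.49 in IEL TR against 669.93 to 859.22 in IEL SP. Trdv4 was higher in TR, at 240.14 to 327.5 in LP TR against 150.02 to 186.29 in LP SP. In the epithelium Trdv4 was 247.47 to 421.4 in TR against 133.2 to 206.29 in SP. A list of 8 stromal and endothelial genes summed to 74.61 to 96.18 in LP TR against 179.13 to 210.95 in LP SP, with Dcn at 0 in both, and overlapped in the epithelium. The part of these cells in the Foxp3+ differences was not tested, and in bulk libraries more cells of a type and more RNA per cell cannot be told apart.

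Against CD4+CD8α+ cells the Foxp3+ difference took in more of the lamina propria list. Of the 43 genes 22 (51.2%) were lower and 0 higher in LP DP than in LP TR, where 13.2% of all tested genes passed, 7.76% lower and 5.42% higher. In the epithelium 12 (27.9%) were lower and 0 higher, where 4.14% of all passed, 2.36% lower and 1.78% higher. The median differences were -0.97 in the lamina propria and -1.07 in the epithelium, against 0.01 and 0.06 for all genes. These contrasts use the same TR libraries as those with CD4-only cells. Between the sites, 11 genes were lower in both: Bst2, Dtx3l, Gbp7, Ifi27l2a, Ifitm2, Iigp1, Isg20, Oas1a, Oasl1, Samhd1 and Usp18, which are 11 of the 12 and 11 of the 22. With the 3 genes left out that met the filter through 1 population or site, these counts were 10 of 11 and 10 of 21. For this overlap too, no share of all tested genes was counted.

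Samhd1 held 662, 595 and 622 in LP DP and 800.4, 534 and 615 in IEL DP libraries, every one below every TR library of its site. It fell by 2.34 ± 0.15 in the lamina propria (adjusted p = 2.91e-07) and by 2.45 ± 0.18 in the epithelium (adjusted p = 0.00354). Ifi27l2a held 570.0, 921 and 558 in LP DP and 815, 749.6 and 532 in IEL DP, also without overlap with TR. Its differences were -3.46 ± 0.26 and -3.45 ± 0.21 (adjusted p = 1.22e-06 and 0.00173). Gbp7 fell by 1.91 ± 0.15 and 1.47 ± 0.12 (adjusted p = 1.95e-06 and 0.00416).

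Iigp1 was low and uneven in DP cells, at 57.7, 147 and 20.7 in LP DP and 121, 14.1 and 64.2 in IEL DP, against 492, 888 and 693 in LP TR. It fell by 3.55 ± 0.73 in the lamina propria (adjusted p = 0.00479) and fell by 4.89 ± 0.77 in the epithelium (adjusted p = 0.0284). Genes that passed only in the lamina propria for this contrast were Eif2ak2, Gbp2, Gbp3, Ifi44, Igtp, Irgm2, Isg15, Oasl2, Rtp4, Trim30a and Zbp1, and only in the epithelium Ifih1; the difference between the sites was not tested for this contrast. Ifih1, which encodes the RNA sensor MDA5, held 147, 131 and 160.0 in IEL DP and 516, 376 and 321 in IEL TR libraries (difference -1.44 ± 0.24, adjusted p = 0.0336). Zbp1, the sensor of Z-form nucleic acid that can start necroptosis, held 358, 459.6 and 326 in LP DP and 604, 844 and 565 in LP TR (difference -0.81 ± 0.22, adjusted p = 0.0232). The call of Ifih1 was lost with any 1 IEL DP library or IEL TR replicate 2 left out (largest adjusted p = 0.148). That of Zbp1 was lost without LP DP replicates 1 or 3 or LP TR replicate 2 (0.106). With 1 library left out, those of Isg15 and Oasl2 were lost in 4 of 6 fits each (0.187 and 0.122). Both were also lost in edgeR. That of Gbp2 was lost in 2 of 6 fits. The epithelial count of 12 was 5, 4 and 3 without IEL DP replicates 1, 2 and 3, and 17, 9 and 11 without IEL TR replicates 1, 2 and 3. With the replicate block it was 3.

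**Figure D3:**
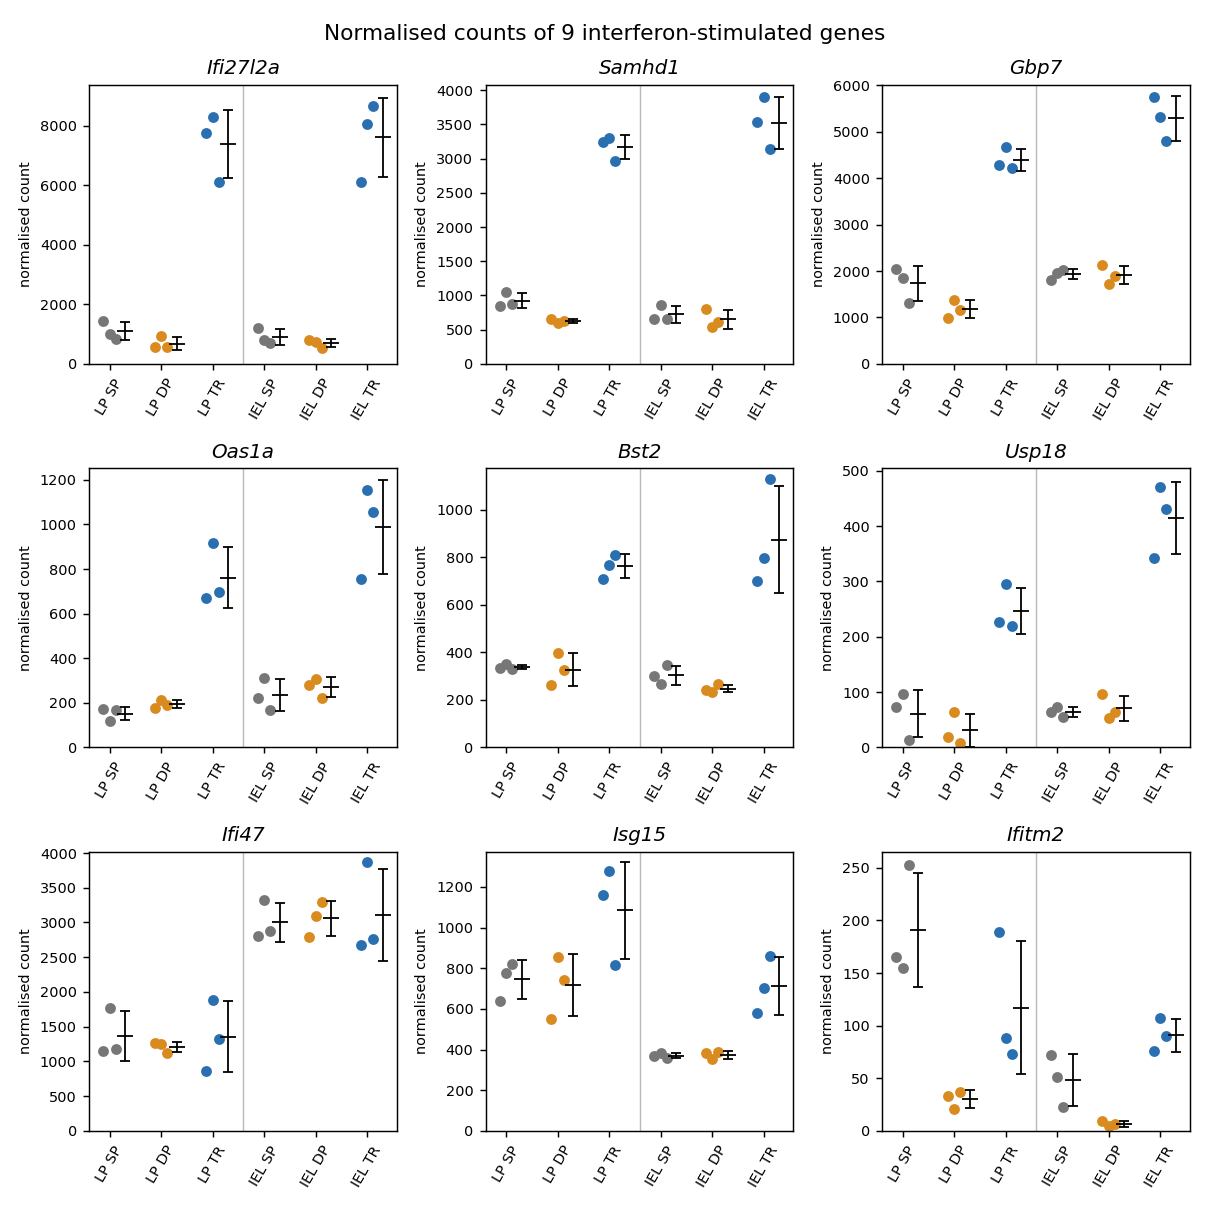
Normalised counts of 9 genes in 18 libraries, with points for libraries and bars for the mean and SD of each group of 3. The TR points of Ifi27l2a, Samhd1, Gbp7, Oas1a, Bst2 and Usp18 lie above all SP and DP points in both sites, Ifi47 splits by site, Isg15 is lower in epithelial SP and DP libraries, and Ifitm2 is lowest in DP libraries.

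CD4+CD8α+ and CD4-only cells differed at 1 of the 43 genes in each site, and it was the same gene, Ifitm2, which encodes a membrane protein that blocks fusion of enveloped viruses with endosomes. In the epithelium 0.213% of all tested genes passed, 0.0452% higher and 0.168% lower in DP cells. In the lamina propria 0.769% passed, 0.252% higher and 0.517% lower. Ifitm2 held 165, 154 and 253 in LP SP libraries and 33, 20.4 and 36.7 in LP DP. In the epithelium it held 72.1, 51.1 and 22.9 in SP and 9.62, 4.14 and 6.51 in DP libraries. DP libraries were below SP libraries throughout, by a log2 difference of -2.63 ± 0.46 in the lamina propria (adjusted p = 0.0161) and -2.60 ± 0.46 in the epithelium (adjusted p = 0.0332). The lamina propria call was lost without LP DP replicate 2 or LP SP replicate 3 (largest adjusted p = 0.075), and the epithelial call without any library but IEL SP replicate 3 (largest 0.189). TR libraries held 189, 88.3 and 73 in LP and 75.6, 107 and 89.8 in IEL, so that DP cells were also below TR cells in both sites (difference -1.84 ± 0.46, adjusted p = 0.0161, and -3.61 ± 0.40, adjusted p = 0.00922).

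The neighbouring gene Ifitm3, the best known of this family, had values of 78.5, 171 and 119 in LP SP and 2.06, 14.4 and 40.5 in LP DP libraries. Its difference of -3.24 ± 0.78 did not pass (adjusted p = 0.0836). Over all 43 genes the DP minus SP median was -0.16 in the epithelium and -0.35 in the lamina propria, with 27 and 33 genes below 0. The interaction between site and this contrast passed at 0 of the 43 genes in limma, edgeR and DESeq2. At 5 of them the unadjusted p was under 0.05, as at 974 of the 15472 tested genes. In limma 0% of all tested genes passed.

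The epithelium and the lamina propria differed at 12 of the 43 genes in SP or DP cells. Of these, 7 also passed between populations (Dtx3l, Eif2ak2, Gbp7, Ifitm2, Isg15, Rtp4 and Trim30a) and 5 did not (Ddx58, Ifi35, Ifi47, Irgm1 and Parp14). The share of all tested genes that differed between the sites in SP or DP cells was not counted. In CD4-only cells 6 of the 43 were higher in the epithelium and 2 lower, where 9.91% of all tested genes passed, 4.25% higher and 5.66% lower. In CD4+CD8α+ cells 9 were higher and 2 lower, where 9.51% of all passed, 4.10% higher and 5.42% lower. The median of the 43 stayed near that of all genes, at 0.04 against 0.03 in SP and 0.15 against 0.05 in DP cells. The populations share no library here, but for the same reason their agreement is not shown to be independent. In both, 7 genes passed in the same direction, which are 7 of the 8 and 7 of the 11. Dtx3l, Eif2ak2, Ifi47, Irgm1 and Parp14 were higher, and Ifitm2 and Isg15 lower. The reason is that libraries correlated best with their own replicate number. The share of all tested genes that passed in both populations was not counted. Rtp4 passed in SP cells alone, and Ddx58, Gbp7, Ifi35 and Trim30a in DP cells alone, and the difference between the populations is the interaction at which 0 genes passed.

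Ifi47, an immunity-related GTPase, separated the sites in every population. LP libraries held 1149, 1776 and 1175 in SP, 1259.7, 1244 and 1123 in DP and 859, 1889 and 1321 in TR cells. IEL libraries held 2804, 3321 and 2876, 2795, 3088 and 3297 and 2678, 3865 and 2760.5 in the same order. Every IEL library was above every LP library, while the populations within a site overlapped. The site difference was 1.16 ± 0.23 in SP (adjusted p = 0.00512), 1.34 ± 0.23 in DP (adjusted p = 0.00231) and 1.24 ± 0.32 in TR cells, where it did not pass (adjusted p = 0.183). Annotated exons of Ifi47 overlap those of Olfr56 and Gm12188. Irgm1, which controls the other immunity-related GTPases, rose in the epithelium by 0.82 ± 0.18 in SP (adjusted p = 0.00934) and 0.67 ± 0.18 in DP cells (adjusted p = 0.0307). The DP call of Irgm1 was lost whichever library was left out (adjusted p = 0.0517 to 0.0966), and also with all 18 libraries in 1 fit and with no filter.

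Chromosome positions set these GTPases in 2 groups, a pattern looked for after the values were seen. On mm10 chromosome 11, Irgm1 (48861968 to 48871683), Tgtp1 (48985327 to 48994172), Tgtp2 (49057194 to 49064206) and Ifi47 (49076587 to 49096974) are neighbours. All 4 passed as higher in the epithelium in SP and DP cells, the DP call of Irgm1 with the limits given above. Tgtp1 and Tgtp2, near-identical T-cell-specific GTPases whose reads may be split unevenly, rose by 1.08 ± 0.20 and 1.14 ± 0.21 in SP and by 1.22 ± 0.20 and 1.15 ± 0.21 in DP cells (adjusted p = 0.00364, 0.00352, 0.00185 and 0.00387). None of these 4 passed between Foxp3+ cells and either other population of the same site. Igtp (58199556 to 58207591) and Irgm2 (58199618 to 58222782) lie further along the chromosome and passed in no site contrast, while both were lower in LP DP than in LP TR cells (Irgm2 by -0.85 ± 0.24, adjusted p = 0.0305, and Igtp by -1.68 ± 0.17, adjusted p = 2.39e-05). Between Foxp3+ and CD4-only cells Igtp passed in the lamina propria alone and Irgm2 in neither site. The call of Irgm2 was lost without any LP DP library or LP TR replicate 2 (largest adjusted p = 0.136). It was also lost with all 18 libraries in 1 fit and with only the groups in the contrast.

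Eif2ak2 held 760.1, 843 and 614 in IEL SP libraries, all above the LP SP range, and rose by 1.33 ± 0.19 in SP (adjusted p = 0.00041) and 0.71 ± 0.19 in DP cells (adjusted p = 0.0297). Parp14, an ADP-ribosyltransferase, rose by 0.74 ± 0.17 in SP (adjusted p = 0.0141) and 0.79 ± 0.17 in DP cells (adjusted p = 0.011), and its neighbour on chromosome 16, Dtx3l, by 0.66 ± 0.19 (adjusted p = 0.043) and 0.95 ± 0.19 (adjusted p = 0.00626). In SP cells Rtp4 rose by 1.03 ± 0.21 (adjusted p = 0.00581). In DP cells the RNA sensor gene Ddx58, which encodes RIG-I, rose by 0.74 ± 0.20 (adjusted p = 0.0301), Gbp7 by 0.70 ± 0.15 (adjusted p = 0.0106), Trim30a by 0.47 ± 0.12 (adjusted p = 0.0236) and Ifi35 by 0.49 ± 0.14 (adjusted p = 0.0465). The call of Ifi35 was lost whichever library was left out (largest adjusted p = 0.161). It was also lost with all 18 libraries in 1 fit, with only the groups in the contrast, with no filter, in edgeR and with the replicate block. In DP cells the call of Trim30a was lost without LP DP replicate 1 or IEL DP replicates 1 or 3 (0.0929), that of Ddx58 without LP DP replicates 1 or 3 or IEL DP replicates 2 or 3 (0.118), and that of Eif2ak2 without any library but IEL DP replicate 2 (0.121). In SP cells the call of Dtx3l was lost without LP SP replicates 1 or 3 or IEL SP replicates 1 or 2 (0.155), and that of Parp14 without LP SP replicate 2 or IEL SP replicate 2 (0.0633).

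Isg15 and Ifitm2 ran the other way. Isg15 held 637, 778 and 821 in LP SP against 367, 384 and 361 in IEL SP libraries, and 553, 857 and 744 in LP DP against 381, 352 and 386 in IEL DP. The IEL libraries were close together and all below the LP libraries. The LP mean was 2.01 times the IEL mean in SP cells (adjusted p = 0.00314) and 1.92 times in DP cells (adjusted p = 0.00607). Ifitm2 fell by 2.06 ± 0.46 in SP (adjusted p = 0.0116) and by 2.02 ± 0.46 in DP cells (adjusted p = 0.0139).

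In Foxp3+ cells 0 of the 43 genes passed between the sites in limma, 0 in edgeR and 7 in DESeq2. In limma 10 had an unadjusted p under 0.05, as had 2036 of the 15472 tested genes. Of all tested genes 0.601% passed in limma, 0.0323% higher and 0.569% lower in the epithelium. A fit of all 18 libraries in 1 model passed 5 of the 43. The values leaned the same way as in the other populations for Parp14 (0.90 ± 0.20, adjusted p = 0.148), Dtx3l (0.86 ± 0.19, adjusted p = 0.14) and Ddx58 (1.18 ± 0.26, adjusted p = 0.138), and these misses do not show that the site has no effect there. The DP count of 11 was 7, 7 and 6 without IEL DP replicates 1, 2 and 3, and 6, 9 and 6 without LP DP replicates 1, 2 and 3. A list of 10 epithelial genes summed to 507.2 to 1371.84 in IEL DP against 298.16 to 510.42 in LP DP. The sums were 456.77 to 734.75 in IEL SP against 211.98 to 515.78 in LP SP. These ranges leaned higher in the epithelium and overlapped in both populations. In TR cells they did not overlap, at 464.02 to 624.77 in IEL against 202.28 to 378.63 in LP. Epcam made 304.67 to 372.07 of the IEL TR sums and 156.69 to 254.45 of the LP TR sums. Cdh1 was at most 9.46 in TR libraries of either site, and Krt20 was at 0 in IEL TR. Mean Cdh1, a large part of the DP sums, was 294.39 in IEL DP and 293.07 in LP DP. The IEL DP library with the highest sum held Fabp2 at 508.75. Apoa1 was at 0 in all LP libraries. A list of 3 gamma-delta T-cell genes summed to 1497.06 to 1927.1 in IEL DP against 753.4 to 867.94 in LP DP, and to 873.86 to 1059.39 in IEL SP against 351.49 to 408.26 in LP SP. Mean Tcrg-C4 was 1534.6 in IEL DP against 678.99 in LP DP, and 748.4 in IEL SP against 175.98 in LP SP. Mean Trdv4 differed less, at 176.51 against 128.21 in DP and 177.76 against 168.51 in SP cells. Mean Tcrg-C1 went the other way in SP cells, at 18.34 in IEL against 34.71 in LP. In SP cells 3 other lists were lower in the epithelium: myeloid and dendritic genes at 437.59 to 481.9 against 542.43 to 807.58, with Csf1r at 0 in IEL SP, innate lymphoid and natural killer genes at 111.14 to 243.33 against 293.33 to 686.58, with Ncr1 at 0 in both, and stromal and endothelial genes at 85.7 to 159.7 against 179.13 to 210.95. These 3 lists overlapped between the sites in DP cells. The part of these markers in the site differences was not tested.

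**Figure D4:**
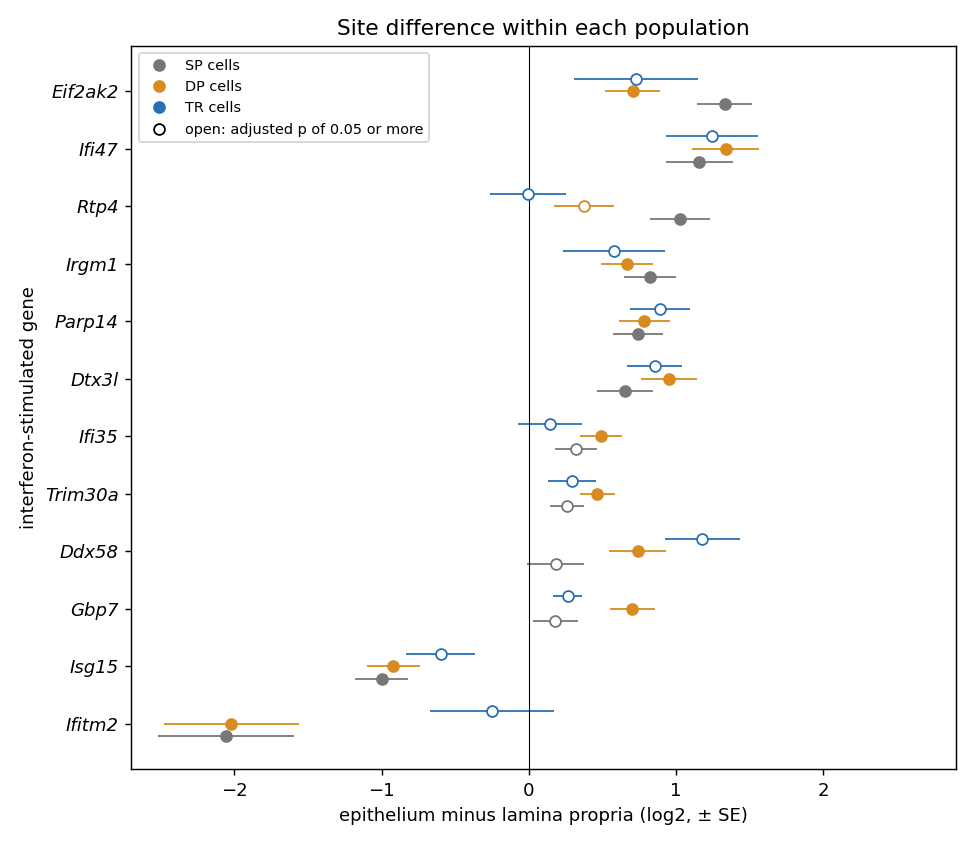
Epithelium minus lamina propria differences on log2(normalised count + 1), with SE bars, of the 12 genes that passed in SP or DP cells, for SP, DP and TR cells; open points had an adjusted p of 0.05 or more. Isg15 and Ifitm2 lie left of 0 and the other 10 right of it in SP and DP cells, and all 12 points of TR cells are open.

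The transcription factors of the family passed in no contrast. Irf1, the factor induced most directly by interferon-gamma, ranged from 1763 to 2409.9 in LP DP and from 2919 to 3568 in IEL TR libraries. Its largest difference relative to its error was -0.48 ± 0.12 for DP minus TR in the epithelium (adjusted p = 0.108). Irf7, which amplifies type I interferon, held 168, 244 and 313 in IEL SP and 523, 461 and 541 in IEL TR libraries, without overlap (difference 1.11 ± 0.26, adjusted p = 0.0954). Irf9 and Stat2, which act together downstream of the type I receptor, differed between LP TR and LP SP cells by 0.52 ± 0.21 and 0.80 ± 0.27 (adjusted p = 0.15 and 0.08).

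Genes used as markers of type I interferon varied within groups. Ifit1, which binds viral RNA caps, held 159, 457 and 132 in LP SP, 58.8, 202 and 242 in LP DP and 310.4, 873 and 526 in LP TR libraries. In the epithelium it held 164, 220.4 and 175, 106, 333 and 217 and 364, 443 and 972 in the same order. TR libraries tended high and the LP groups overlapped, and no contrast passed (smallest adjusted p = 0.0533, for LP DP minus LP TR). Oas2 held 185, 93.5 and 19.2 in IEL TR libraries and at most 9.58 in IEL SP and DP libraries. It passed in no contrast, and it met the filter on low values only through TR libraries. Its low values in SP and DP cells are therefore no support for a rise. The IEL TR libraries did not move together at these genes. IEL TR replicate 1 was the lowest of the 3 by far at Ifit2 (2.1, 201 and 319), Mx1 (8.4, 108 and 149), Ifi44 (6.3, 305 and 135), Oasl2 (5.25, 142 and 142) and Oas3 (37.8, 356 and 289), genes picked after their values were seen, and the highest at Oas2. Mx1, Ifit2, Ifit3, Rsad2, Oas3, Parp9, Xaf1 and Ifitm1 also passed in none. Gbp2 ranged over 876, 1574 and 1081 in LP SP, 533, 631 and 666 in LP DP and 1018, 1741 and 1479 in LP TR, with 587, 983 and 768, 386, 717 and 685 and 1608, 1811 and 989.9 in the epithelial groups, and passed between LP DP and LP TR (difference -1.18 ± 0.28, adjusted p = 0.0125).

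Upstream genes were read from a list of 85 further genes of the pathway, of which 71 passed the filter on low values. Between Foxp3+ and CD4-only cells 12 (16.9%) were higher and 3 (4.23%) lower in the lamina propria, where 5.03% of all tested genes were higher and 4.47% lower. In the epithelium 6 (8.45%) were higher and 1 (1.41%) lower, against 1.49% and 1.42% of all tested genes. The lamina propria count of 15 was 9 with only the groups in the contrast. The epithelial count of 7 was 0, 0 and 0 without IEL SP replicates 1, 2 and 3, and 12, 5 and 6 without IEL TR replicates 1, 2 and 3. It was 20 with all 18 libraries in 1 fit, 14 with library weights, 21 in DESeq2 and 0 with the replicate block. Among the ligands, type I and type III interferon genes were at or near 0: Ifnb1 reached at most 1.49 normalised counts and Ifna1 was listed at 0. Ifng, the gene for interferon-gamma, held 948, 1150.2 and 1175 in LP SP, 834, 1254 and 852 in LP DP and 34.6, 51 and 8.52 in LP TR libraries. It held 629.9, 559 and 624, 774, 728 and 499 and 46.2, 81.1 and 31.4 in the epithelial groups. Every TR library was below every SP and DP library of its site, and Ifng fell by 5.38 ± 0.44 from SP to TR in the lamina propria (adjusted p = 4.29e-06) and by 3.59 ± 0.37 in the epithelium (adjusted p = 0.0106). None of the other 8 ligand genes listed exceeded 1.49 in any library.

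Of the 5 receptor genes tested, 3 were higher in LP TR than in LP SP cells (Ifngr1, Ifngr2 and Il10rb) and 1 in the epithelium (Ifngr1). Of all tested genes 5.03% were higher in the lamina propria and 1.49% in the epithelium. The call of Il10rb was lost without LP TR replicate 2 or LP SP replicates 2 or 3 (largest adjusted p = 0.0785). The epithelial call of Ifngr1 was lost with any 1 IEL SP library left out (largest adjusted p = 0.0862) and with the replicate block. Between the sites, Ifngr1 and Ifnar1 were lower in the epithelium in SP and DP cells, and Il10rb, a chain shared by interferon-lambda and interleukin-10 receptors, was higher there in DP cells (0.87 ± 0.20, adjusted p = 0.0164). In TR cells 0 of the 5 passed between the sites in limma and 0 in edgeR, with 4 in DESeq2 and 4 at an unadjusted p under 0.05. Between DP and SP cells 0 passed in either site in limma, edgeR or DESeq2, with 0 at an unadjusted p under 0.05. Ifngr1, the ligand-binding chain for interferon-gamma, held 7842, 6922 and 7814 in LP SP, 6664, 5951 and 6891 in LP DP and 14307, 13364 and 12968 in LP TR libraries. In the epithelium it was 1111, 1591 and 1454 in SP, 1013, 1191 and 1255 in DP and 6612, 9407 and 4828 in TR. TR libraries were highest in each site, by 0.85 ± 0.12 over SP in the lamina propria (adjusted p = 0.000583) and 2.29 ± 0.27 in the epithelium (adjusted p = 0.0154). Epithelial SP and DP cells were below those of the lamina propria by -2.45 ± 0.12 and -2.50 ± 0.12 (adjusted p = 4.31e-08 and 3.34e-08). Ifngr2, the signalling chain, was 202, 163 and 234 in LP TR against 41, 20.9 and 34.8 in LP SP libraries (difference 2.63 ± 0.30, adjusted p = 7.86e-05). Ifnar1, a chain of the type I receptor, was lower in the epithelium, where the LP mean was 2.37 times the IEL mean in SP and 1.97 times in DP cells (adjusted p = 0.000672 and 0.00425).

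**Figure D5:**
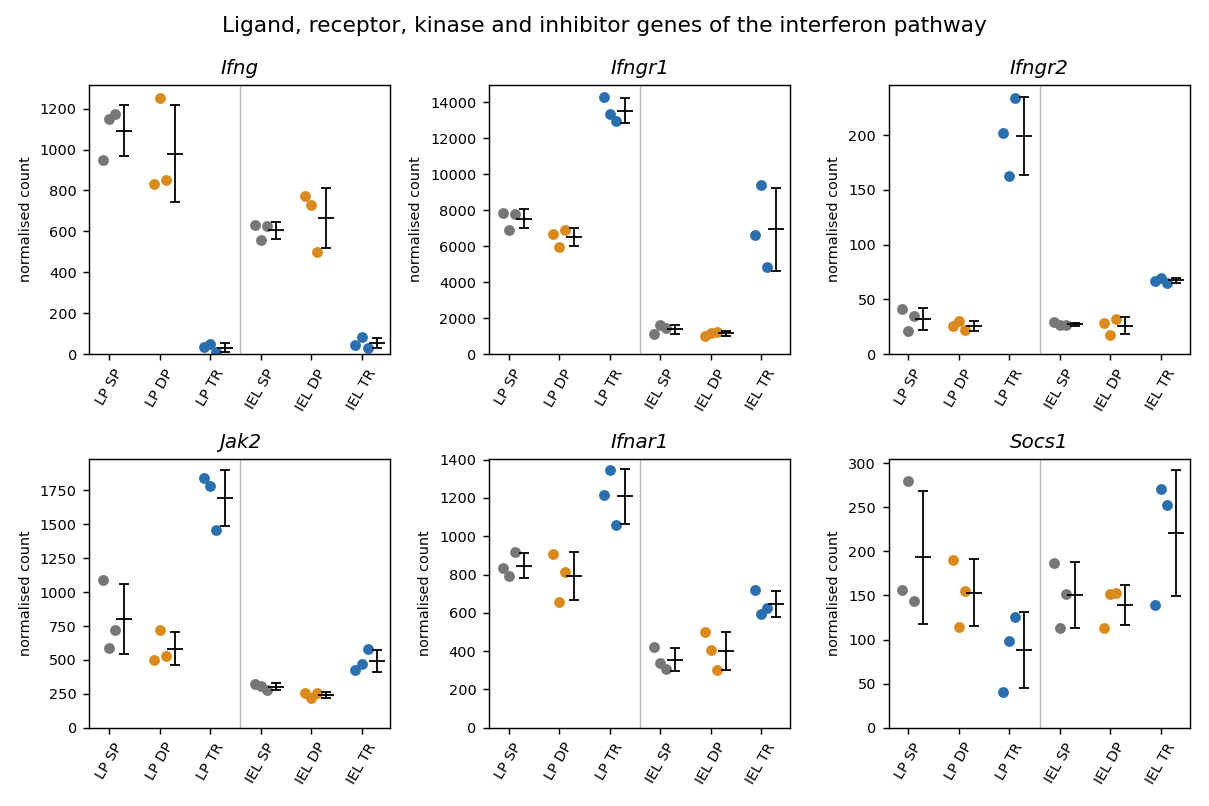
Normalised counts of Ifng, Ifngr1, Ifngr2, Jak2, Ifnar1 and Socs1 in 18 libraries, with points for libraries and bars for the mean and SD of each group of 3. In each site Ifng is lowest and Ifngr1, Ifngr2, Jak2 and Ifnar1 are highest on average in TR cells, and Ifngr1 and Jak2 are lower in each epithelial group than in the same population of the lamina propria.

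Jak2, the kinase bound to IFNGR2, rose by 1.12 ± 0.20 in LP TR over LP SP (adjusted p = 0.00329) and fell by 1.79 ± 0.17 from LP TR to IEL TR (adjusted p = 0.0238). Cd274, which encodes the inhibitory ligand PD-L1, was the other gene of the 71 that passed between the sites in TR cells (-2.30 ± 0.26, adjusted p = 0.0339). Both calls were lost in each leave-one-out fit except that without IEL TR replicate 1.

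Of 7 inhibitors, 1 passed between TR and SP cells in the lamina propria, where 9.50% of all tested genes passed. There 6 of the 7 had a difference below 0. The 2 that passed between the sites were lower in the epithelium in both SP and DP cells. Of all tested genes 9.91% passed between the sites in SP and 9.51% in DP cells. Socs1, the main brake on the interferon-gamma receptor, passed in no contrast and held 156, 279.9 and 144 in LP SP, 41.1, 98.2 and 125 in LP TR and 139, 271 and 253 in IEL TR libraries. Socs3, a brake on STAT3 cytokine receptors, was lower in the epithelium by -4.17 ± 0.62 in SP and -3.65 ± 0.62 in DP cells (adjusted p = 0.000677 and 0.0022). Ptpn2, a phosphatase that acts on Janus kinases, was lower in the epithelium by -0.58 ± 0.14 and -0.72 ± 0.14 (adjusted p = 0.017 and 0.00529). Ptpn6, the phosphatase SHP-1, was lower in LP TR than in LP SP cells (-1.16 ± 0.21, adjusted p = 0.0034).

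Of the further targets, Oas1g, Ube2l6, Tap1 and Shisa5 were higher in Foxp3+ than in CD4-only cells in both sites. The share of all tested genes that passed in both was not counted. Each of these epithelial calls was lost with any 1 IEL SP library left out (largest adjusted p = 0.136, for Tap1) and with the replicate block. In the lamina propria those of Tap1 and Shisa5 were lost with only the groups in the contrast. Ube2l6 is the conjugating enzyme of ISG15, and it held 42.2, 82.8 and 39.4 in LP SP and 281, 382 and 317 in LP TR libraries (difference 2.62 ± 0.40, adjusted p = 0.000758). In the epithelium its difference was 2.97 ± 0.36 (adjusted p = 0.0175). Tap1, a subunit of the peptide transporter that supplies MHC class I, rose by 0.96 ± 0.19 and 1.23 ± 0.19 (adjusted p = 0.00632 and 0.0346). Gbp6, Oas1b, Psmb9, Cd274 and Il10rb also rose in the lamina propria and Ly6a in the epithelium, while Epsti1 was lower in LP TR than in LP SP cells (-0.79 ± 0.16, adjusted p = 0.00683). Between DP and SP cells 0 of the 71 passed in either site in limma, with 12 in the lamina propria and 5 in the epithelium at an unadjusted p under 0.05. For the same 2 contrasts edgeR passed 0 and 0 and DESeq2 2 and 1. Between DP and TR cells 22 of the 71 (31.0%) were lower and 3 (4.23%) higher in LP DP, against 7.76% and 5.42% of all tested genes. In the epithelium 8 (11.3%) were lower and 1 (1.41%) higher in DP, against 2.36% and 1.78%. That epithelial count of 9 was 1 to 13 with 1 library left out and 4 with the replicate block.

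Between the sites, 6 of the 71 (8.45%) were higher in the epithelium and 7 (9.86%) lower in SP cells, against 4.25% and 5.66% of all tested genes. In DP cells 13 (18.3%) were higher and 7 (9.86%) lower, against 4.10% and 5.42%. Without IEL DP replicate 3 the DP count of 20 was 12. In SP cells the higher genes were Trim12c, Tgtp1, Tgtp2, Oas1b, Slfn1 and Irf3 and the lower ones Ifngr1, Cd274, Ifnar1, Socs3, Jak2, Cxcl10 and Ptpn2. The same 7 genes were lower in epithelial DP cells. Cxcl10, a chemokine gene that responds strongly to interferon-gamma, held 387, 902 and 606 in LP SP and 12, 68.1 and 31.4 in IEL SP libraries, with no overlap (difference -4.28 ± 0.96, adjusted p = 0.012). In DP cells Trim12c, Tgtp1, Trim34a, Tgtp2, Mavs, Trim25, Slfn8, Il10rb, Slfn1, Myd88, Irf3, Psmb9 and Tyk2 were higher in the epithelium.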

How the data were processed

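The authors deposited 1 table of normalised counts per gene, here treated as signal: gene counts divided by a factor per library. Per the submitters' processing notes the genome build was mm10 and the tools included TopHat and HTSeq, whose versions are not given in the sources used here. Libraries were made with Nextera XT, per the labels' protocols; how the factors and the strand setting were chosen is not given in the sources used here. The deposited signal values were whole multiples of 1 step per library in 100% of values, within a tolerance of 0.1 of a step, so reads were recovered (5093955 to 8851347 per library); in IEL SP replicate 1 the step was so near 1 that its values alone do not show it.

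Values were tested as log2(normalised count + 1) with limma 3.58.1 in R 4.3.3, after keeping genes at 10 or more in at least 3 libraries, with Benjamini-Hochberg adjustment over 15472 genes and a threshold of 0.05. Fold changes on this scale understate changes of low genes. Contrasts with IEL TR cells used only the groups in the contrast, since the median gene SD there was 0.5471 against 0.3048 to 0.3488 in the other groups; the others used the 15 libraries of the remaining groups. Alternatives were edgeR 4.0.16 and DESeq2 1.42.0 on the recovered reads, 1 fit of all 18 libraries, library weights, a pseudocount of 5, no filter, equal totals, a replicate block and leaving out each library. The scripts were tested on simulated data. Of all genes, edgeR called 1326 between LP TR and LP SP cells and 306 between IEL TR and IEL SP cells.

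Every gene of the 43 that passed is named, and Irf1, Irf7, Irf9, Stat2, Isg15, Ifit1, Ifi27l2a, Ifitm2 and Gbp2 are described whatever their test. The genes and lists were chosen with earlier results of these data known. Gene positions are from GENCODE M21, which held 36639 of the 38392 genes. Exons of 17 of the 43 genes overlap another annotated gene. One gene planned for the pathway list is not reported here.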

Additional observations from a re-analysis of the deposited data

How the results depend on the processing

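None of the 80 differences of the 43 genes that passed, nor of the 91 of the 71 pathway genes, changed direction under any alternative run. Of those that did not pass, 142 of 393 and 231 of 690 had the other sign in at least 1 alternative, and 0 of them passed there. The counts of the 43 genes that passed moved by more than 1.5 times as follows; the cause was not tested unless named. Between TR and SP cells in the epithelium, 10 became 18 with all 18 libraries in 1 fit, 5 with equal totals, 23 in DESeq2 and 1 with the replicate block. Between DP and TR cells in the epithelium, 12 became 21 with all 18 libraries in 1 fit, 22 in DESeq2 and 3 with the replicate block. Between DP and SP cells, 1 in the epithelium became 0 with only the groups in the contrast, with a pseudocount of 5 and in edgeR, and 1 in the lamina propria became 2 with a pseudocount of 5, 6 in DESeq2 and 2 with the replicate block. Between the sites, 11 in DP cells became 6 with all 18 libraries in 1 fit and 7 with no filter, and 0 in TR cells became 5 with all 18 libraries in 1 fit, 3 with library weights and 7 in DESeq2.

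Leaving out 1 library at a time, which leaves fewer samples, gave 2 to 13 for TR against SP cells in the epithelium and 11 to 14 in the lamina propria. For DP against TR cells it gave 3 to 17 in the epithelium and 17 to 22 in the lamina propria. For DP against SP cells it gave 0 to 1 and 0 to 2. The site counts were 6 to 7 in SP, 6 to 9 in DP and 0 to 0 in TR cells. Both interactions stayed at 0 under every alternative.

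No pair of libraries with the same number reached the threshold set for pairing, and the main fits used no replicate block. Over 45 pairs of groups and numbers the correlations of deviations were 0.0005304 to 0.08869 and 0 exceeded 0.1, though all 18 libraries correlated best with their own number. The threshold therefore does not show that libraries with the same number are independent. With the block, the 1 gene that passed between TR and SP cells in the epithelium was Samhd1 (adjusted p = 0.0319), Gbp7 missed (adjusted p = 0.0513), and the pathway count there went from 7 to 0. Contrasts with 3 libraries a group, above all those with IEL TR cells, limit which small differences can pass.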
